A study of Mus musculus with 12 samples.

Results

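The tricarboxylic acid (TCA) cycle, the enzymes that feed pyruvate into it and the enzymes of the malate-aspartate shuttle were followed here as 38 named genes among the 22180 genes measured on the array. Each gene was taken at its probe set annotated to that symbol alone, and where there were several, at the probe set with the highest mean over the 12 arrays. All 38 genes had such a probe set, and Got2, Me3, Pdk1 and Suclg2 had more than 1. The study sought target genes of ERRb, a nuclear receptor without a known hormone whose gene is Esrrb, in the mouse embryonic stem (ES) cell line K3. The labels describe WT/mock cells as carrying the intact gene, KO/mock cells as knockouts, and KO/ERRb-wt cells as knockouts into which a lentivirus had brought ERRb back. What mock stands for is not explained in them. All 3 groups were grown in N2B27 medium with LIF and the inhibitors CH99021, against GSK3, and PD0325901, against MEK, and then spent 3 days in N2B27 medium with both inhibitors and doxycycline. Each group held 4 arrays, 2 from each of 2 clones. WT/mock was clones 5-2 and 5-5, KO/mock was clones 8-3 and 8-4, and KO/ERRb-wt was clones 12-1 and 12-3. The labels name the 2 arrays of a clone biological replicates, but nothing says that they came from separate cultures, so p-values measure the spread between these arrays. A difference between groups also holds whatever else sets those clones apart, and the sources used here do not give the promoter of the virus or the role of doxycycline.

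The TCA cycle runs in the mitochondrial matrix. Pyruvate from glycolysis is carried in and turned into acetyl-CoA by the pyruvate dehydrogenase complex, acetyl groups join oxaloacetate to form citrate, and a ring of dehydrogenases then hands electrons to the respiratory chain. The malate-aspartate shuttle moves the electrons of cytosolic NADH into the matrix through paired malate dehydrogenases and aspartate aminotransferases in both compartments. The ERR receptors are known as regulators of mitochondrial energy genes, and naive ES cells are known to use both glycolysis and oxidative metabolism.

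Esrrb itself did not follow the labels. Its probe set read 7.38 to 7.39 on the WT/mock arrays, 7.41 to 8.00 on KO/mock and 6.50 to 6.99 on KO/ERRb-wt, a log2 difference of 0.28 ± 0.13 (SE) from WT/mock to KO/mock (limma, BH-adjusted p = 0.324) and -0.93 ± 0.13 from KO/mock to KO/ERRb-wt (BH-adjusted p = 0.00436). Where its probes lie relative to the lesion and to the viral insert is not given, so this does not settle the labels. Groups are therefore named by their labels, and every direction is one between labelled arrays. Of 7 ES cell markers, 6 had means of 8.32 to 12.2 and Dppa5a had 4.95, below the array medians of 5.00 to 5.07. The mean over the 7 was 9.99 to 10.1 on every array, and that over 8 feeder fibroblast markers 4.88 to 5.09. Feeder markers lay between 4.88 and 4.99 on WT/mock, 4.89 and 5.01 on KO/mock and 5.02 and 5.09 on KO/ERRb-wt. The lists of primitive endoderm (6 genes), trophoblast (6) and neuroectoderm (4) had array means of 5.09 to 5.33, 5.53 to 5.80 and 5.07 to 5.37. Single markers passed the test (limma, BH-adjusted p under 0.05), given here as log2 differences. The ES cell markers Nanog and Utf1 were lower on KO/ERRb-wt, at -0.25 and -0.35 against KO/mock and -0.40 and -0.27 against WT/mock. Gata4, Krt18 and Sox1 were lower than on WT/mock both on KO/mock (-0.51, -0.61 and -0.62) and on KO/ERRb-wt (-0.56, -0.56 and -0.67). Gata4 lies on chromosome 14, whose genes with a mean log2 value of at least 6 had medians of -0.41 and -0.48 in these comparisons. Thy1 and Cdx2 were higher on KO/ERRb-wt than on WT/mock, at 0.35 and 0.54, and against KO/mock Sox7 was lower at -0.63 and Dab2 higher at 0.34. The part of these markers in the results below was not tested. In RNA from whole cultures, fewer cells of a type and less RNA per cell cannot be told apart.

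Between KO/mock and WT/mock, 6 of the 38 enzyme genes were called, all lower on KO/mock: Suclg2, Sucla2, Ogdhl, Dld, Pdhb and Got1l1. A gene is called here when its limma p, adjusted by Benjamini-Hochberg (BH) over all 41345 probe sets, is under 0.05. That is 15.8% of the members, against 5.58% of all genes and 10.8% of the genes with a mean log2 value of at least 6, the range that holds every member but Me3 and Got1l1. Of all genes, 3.47% were called lower and 2.11% higher, and of the brighter ones 6.64% and 4.19%. Between KO/ERRb-wt and KO/mock, 4 were called, all lower on KO/ERRb-wt: Pdk1, Pdk4, Idh2 and Got1l1. That is 10.5% of the members, against 4.4% of all genes (3.17% lower, 1.24% higher) and 8.3% of the brighter ones (6.53% lower, 1.77% higher). These 4 calls lay near the threshold, at a BH-adjusted p of 0.0325 to 0.0487 (limma). The count was 0 without either array of clone 8-3, either array of clone 12-3 or replicate 1 of clone 12-1. It was 1 or 2 without replicate 2 of clone 12-1 or replicate 2 of clone 8-4. Without either array of clone 5-2 or replicate 1 of clone 5-5 it was 1 or 2 as well. These last are WT/mock arrays, which enter this comparison only through the shared estimate of the spread. The share of all genes called with an array left out is not given here, so the drop is not read as particular to the members. Between KO/ERRb-wt and WT/mock, 14 were called, 12 lower and 2 higher. That is 36.8% of the members, against 20.8% of all genes (12% lower, 8.82% higher) and 37.8% of the brighter ones (23% lower, 14.9% higher). The share called in the last comparison was therefore near that of the brighter genes. Those were set by a lower limit alone and were not matched to the members in brightness. In all, 15 genes were called at least once, 13 only in the lower direction and Cs and Mdh2 only in the higher one.

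The median log2 difference over the 38 members was -0.02 from WT/mock to KO/mock, -0.06 from KO/mock to KO/ERRb-wt and -0.08 from WT/mock to KO/ERRb-wt. Over all genes with a mean of at least 6 it was 0.02, -0.04 and -0.02. The arrays of the groups compared did not overlap for 12, 11 and 21 members, or 31.6%, 28.9% and 55.3%, against 15.9%, 17% and 28.5% of all genes and 29.2%, 28% and 49.5% of the brighter ones. The comparisons share arrays, so their values are set side by side and not compared as independent results.

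**Figure D1:**
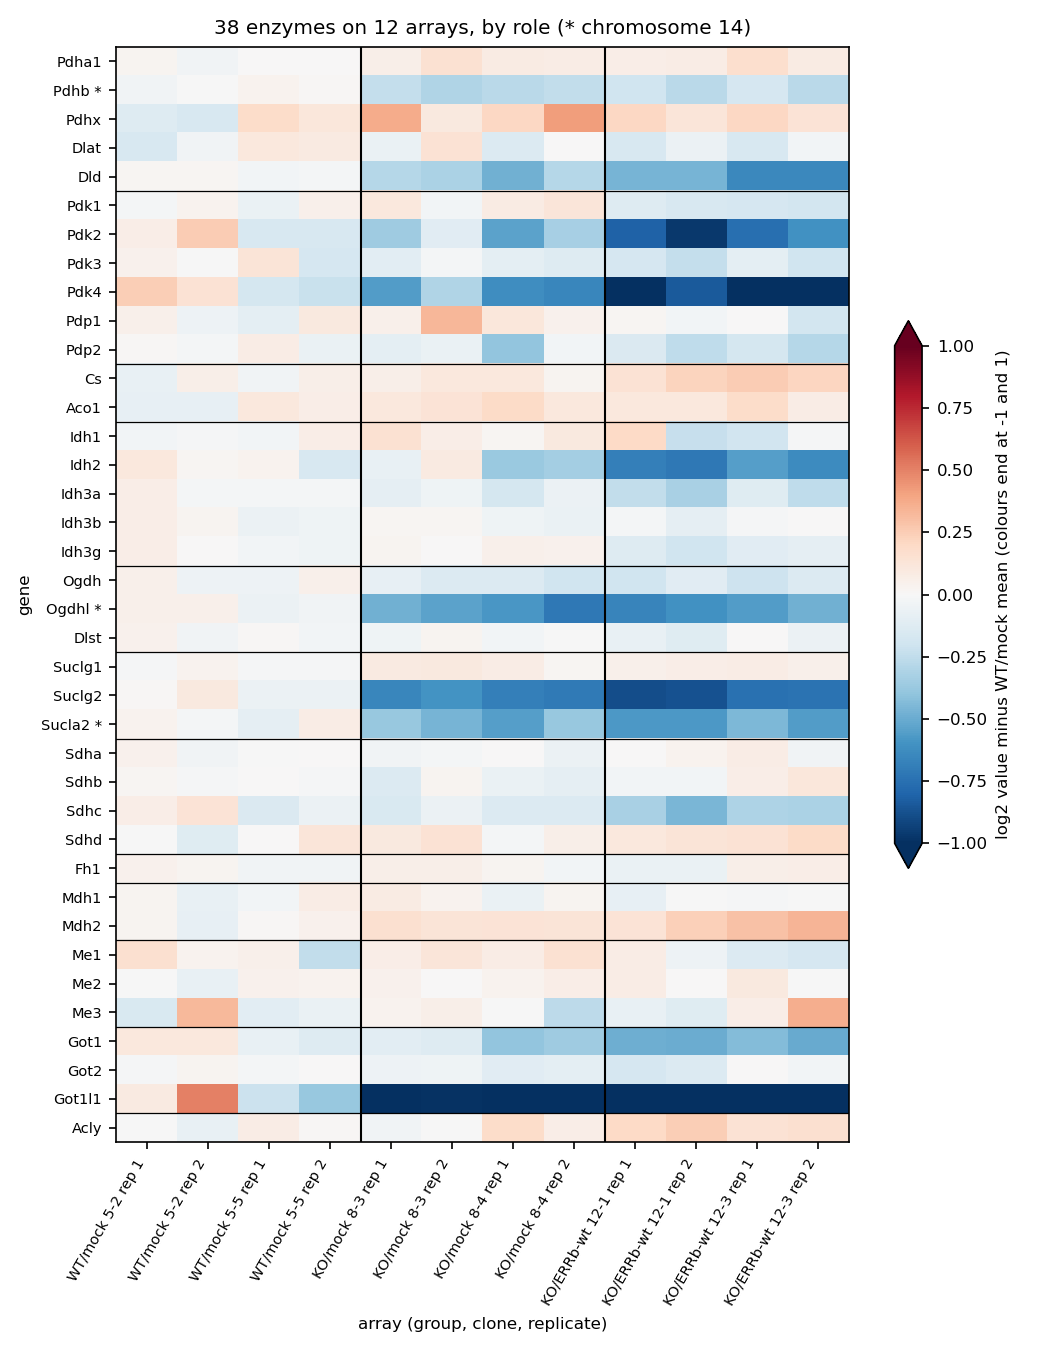
Log2 value of each of the 38 enzyme genes (rows, in order of role, with thin lines between roles) on each of the 12 arrays (columns), minus the gene's mean over the 4 WT/mock arrays. Blue is lower and red higher than that mean, colours end at -1 and 1, and an asterisk marks chromosome 14; Got1l1, Suclg2, Ogdhl, Sucla2 and Dld are blue on all 8 KO/mock and KO/ERRb-wt arrays.

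**Figure D2:**
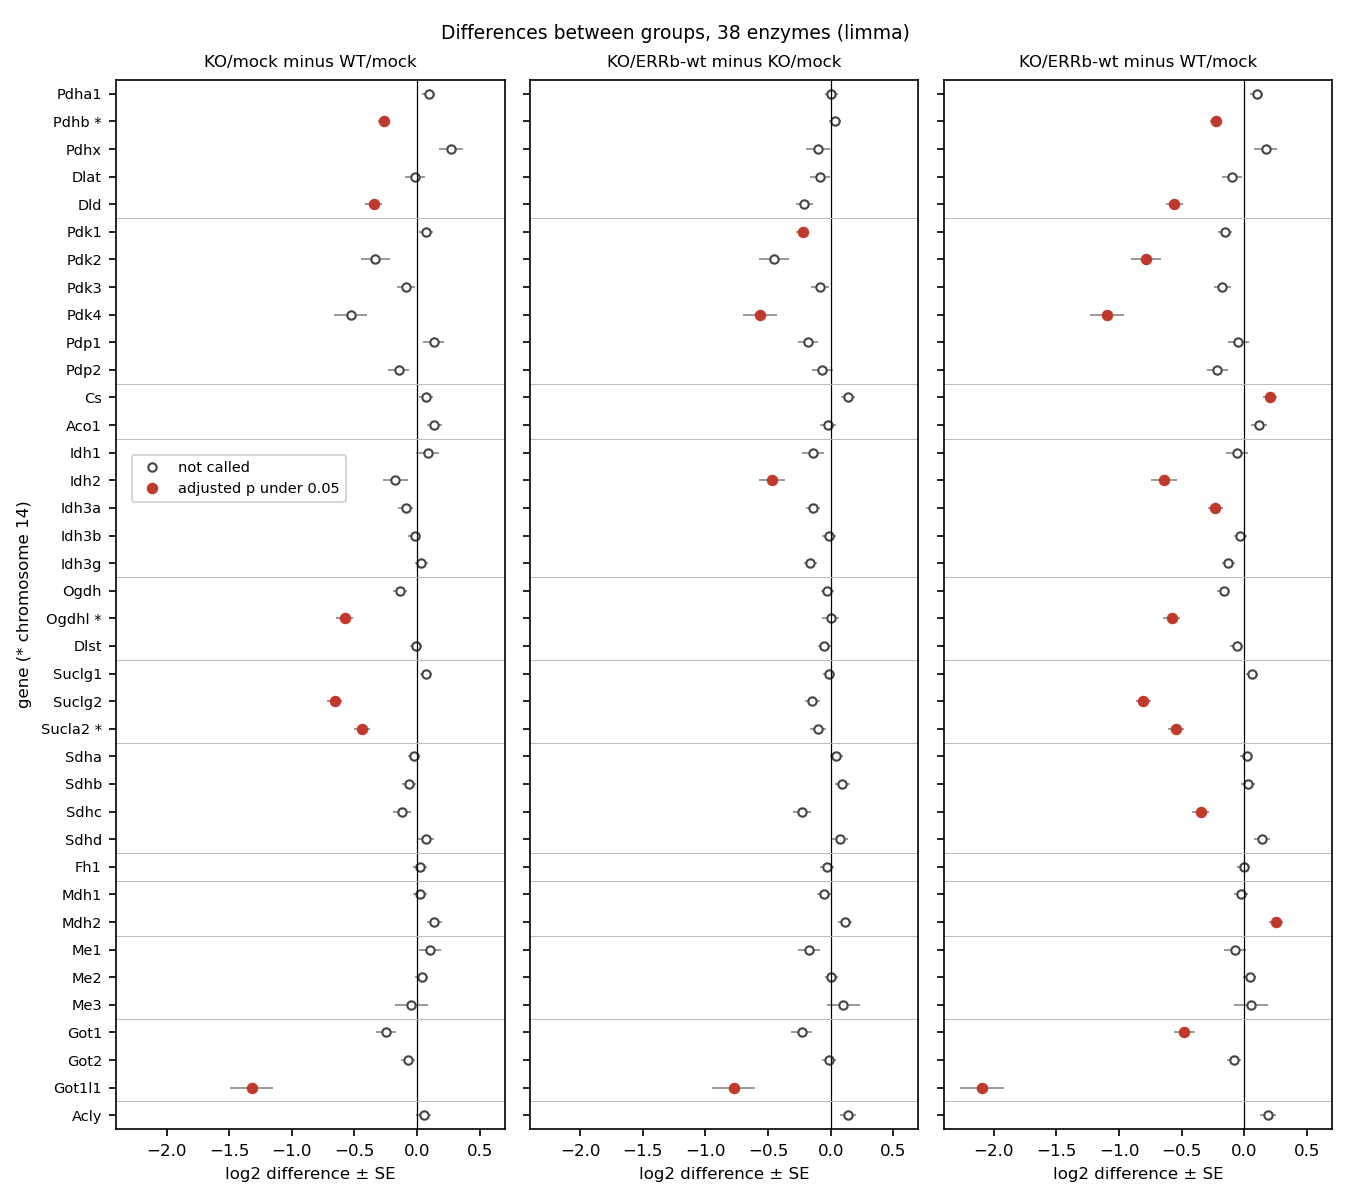
Log2 difference ± SE of each of the 38 genes in the 3 comparisons (limma, 4 arrays against 4); filled points have an BH-adjusted p under 0.05 over all probe sets. The 6 called in KO/mock minus WT/mock and the 4 called in KO/ERRb-wt minus KO/mock all lie left of 0, and Cs and Mdh2 are the called points to the right in KO/ERRb-wt minus WT/mock.

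The pyruvate dehydrogenase complex makes acetyl-CoA from pyruvate. Of its 5 genes, Dld and Pdhb were lower on both KO/mock and KO/ERRb-wt than on WT/mock, and the other members of the complex were called in neither comparison. Dld encodes dihydrolipoamide dehydrogenase, the subunit that this complex shares with the oxoglutarate dehydrogenase complex. In each sentence of this kind the arrays are given by clone and then replicate, in the order 5-2, 5-5, 8-3, 8-4, 12-1 and 12-3. Dld read 10.23, 10.23, 10.18 and 10.19 on the WT/mock arrays, 9.92, 9.89, 9.73 and 9.92 on KO/mock and 9.74, 9.74, 9.56 and 9.56 on KO/ERRb-wt. Every WT/mock array lay above all others, while the KO/mock and KO/ERRb-wt arrays overlapped. Dld differed by -0.35 ± 0.07 (SE) between KO/mock and WT/mock (limma, BH-adjusted p = 0.0143), a fall of 21.3% on the linear scale, and by -0.56 ± 0.07 between KO/ERRb-wt and WT/mock (BH-adjusted p = 0.000226). Between KO/ERRb-wt and KO/mock the value was -0.21 ± 0.07 (BH-adjusted p = 0.114). The first of these calls ended without replicate 1 of WT/mock clone 5-2 (BH-adjusted p = 0.0501), and without clone 5-2 or clone 8-4 (up to 0.136).

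Pdhb encodes the beta subunit of the pyruvate decarboxylase component and lies on chromosome 14. It read 11.35, 11.38, 11.42 and 11.40 on WT/mock, 11.15, 11.09, 11.12 and 11.14 on KO/mock and 11.19, 11.12, 11.22 and 11.12 on KO/ERRb-wt. The WT/mock arrays were all higher than the other 8, which overlapped each other. The difference was -0.26 ± 0.05 from WT/mock to KO/mock (limma, BH-adjusted p = 0.0119), -0.23 ± 0.05 from WT/mock to KO/ERRb-wt (BH-adjusted p = 0.00866) and 0.04 ± 0.05 from KO/mock to KO/ERRb-wt (BH-adjusted p = 0.746). The Pdhb call on KO/mock ended when any of the 4 clones compared was left out (BH-adjusted p up to 0.0903), and that on KO/ERRb-wt without clone 5-5 (0.0532). Its partner Pdha1, the X-linked alpha subunit, read 10.25 to 10.31 on WT/mock, 10.34 to 10.44 on KO/mock and 10.35 to 10.45 on KO/ERRb-wt, with differences of 0.09 ± 0.05 (BH-adjusted p = 0.411) and 0.10 ± 0.05 (BH-adjusted p = 0.231) against WT/mock. Dlat, the acetyltransferase core, differed by -0.01 ± 0.08 and -0.10 ± 0.08 in the same comparisons. Pdhx, which tethers Dld to the core, had the largest difference among the members not called in KO/mock minus WT/mock with a positive sign, 0.27 ± 0.09 (BH-adjusted p = 0.157).

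Pyruvate dehydrogenase kinases phosphorylate the complex and switch it off, and its phosphatases switch it back on. None of these 6 genes was called between KO/mock and WT/mock by limma at a BH-adjusted p under 0.05. An unadjusted p under 0.05 was reached by 2, and no share of all genes at that level was taken beside it. On KO/ERRb-wt, Pdk4 and Pdk2 were lower than on WT/mock, and Pdk4 and Pdk1 lower than on KO/mock. Pdk4, the isoenzyme known for its induction in fasting and as a target of ERR receptors in muscle and liver, read 7.68, 7.58, 7.26 and 7.21 on WT/mock, 6.87, 7.13, 6.81 and 6.78 on KO/mock and 6.42, 6.59, 6.24 and 6.11 on KO/ERRb-wt. The groups did not overlap: every WT/mock array was above every KO/mock array, and every KO/mock array above every KO/ERRb-wt array. Pdk4 differed by -1.09 ± 0.13 between KO/ERRb-wt and WT/mock (limma, BH-adjusted p = 0.00027) and so fell by 53.1% on the linear scale. The differences were -0.53 ± 0.13 from WT/mock to KO/mock (BH-adjusted p = 0.0519, just outside the threshold and inside it in 9 of 27 settings, down to 0.0194) and -0.56 ± 0.13 from KO/mock to KO/ERRb-wt (BH-adjusted p = 0.0468, just inside it). The call against KO/mock ended when any single array other than replicate 2 of WT/mock clone 5-5 or replicate 2 of KO/ERRb-wt clone 12-1 was left out (BH-adjusted p up to 0.121). Within WT/mock, clone 5-5 lay 0.40 below clone 5-2 on the log2 scale (limma, BH-adjusted p = 0.468).

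Pdk2, a broadly expressed kinase, read 6.88, 7.07, 6.65 and 6.65 on WT/mock, 6.46, 6.70, 6.28 and 6.48 on KO/mock and 6.00, 5.85, 6.06 and 6.21 on KO/ERRb-wt. All KO/ERRb-wt arrays were below the other 8, and those of WT/mock and KO/mock overlapped. The difference was -0.78 ± 0.12 from WT/mock to KO/ERRb-wt (limma, BH-adjusted p = 0.000941), -0.45 ± 0.12 from KO/mock to KO/ERRb-wt (BH-adjusted p = 0.0648) and -0.33 ± 0.12 from WT/mock to KO/mock (BH-adjusted p = 0.171). Pdk1, the kinase known as a target of the hypoxia factor HIF-1, read 9.64, 9.69, 9.59 and 9.71 on WT/mock, 9.76, 9.63, 9.74 and 9.78 on KO/mock and 9.53, 9.50, 9.49 and 9.47 on KO/ERRb-wt. Its KO/ERRb-wt arrays were the lowest 4. Pdk1 differed by -0.22 ± 0.05 between KO/ERRb-wt and KO/mock (BH-adjusted p = 0.0487) and by -0.15 ± 0.05 between KO/ERRb-wt and WT/mock (BH-adjusted p = 0.0822). A second Pdk1 probe set, with a mean of 3.65 that is below the array medians, was not called. It differed by -0.42 ± 0.13 (limma, BH-adjusted p = 0.0997) and -0.34 ± 0.13 (BH-adjusted p = 0.104) in the same comparisons. The Pdk1 call ended when any single array except replicate 2 of WT/mock clone 5-5 was left out, with an BH-adjusted p of up to 0.116. Pdk3 and the phosphatases Pdp1 and Pdp2 were called in no comparison, with differences from -0.21 ± 0.08 (Pdp2, KO/ERRb-wt minus WT/mock, BH-adjusted p = 0.107) to 0.13 ± 0.08 (Pdp1, KO/mock minus WT/mock, BH-adjusted p = 0.492).

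**Figure D3:**
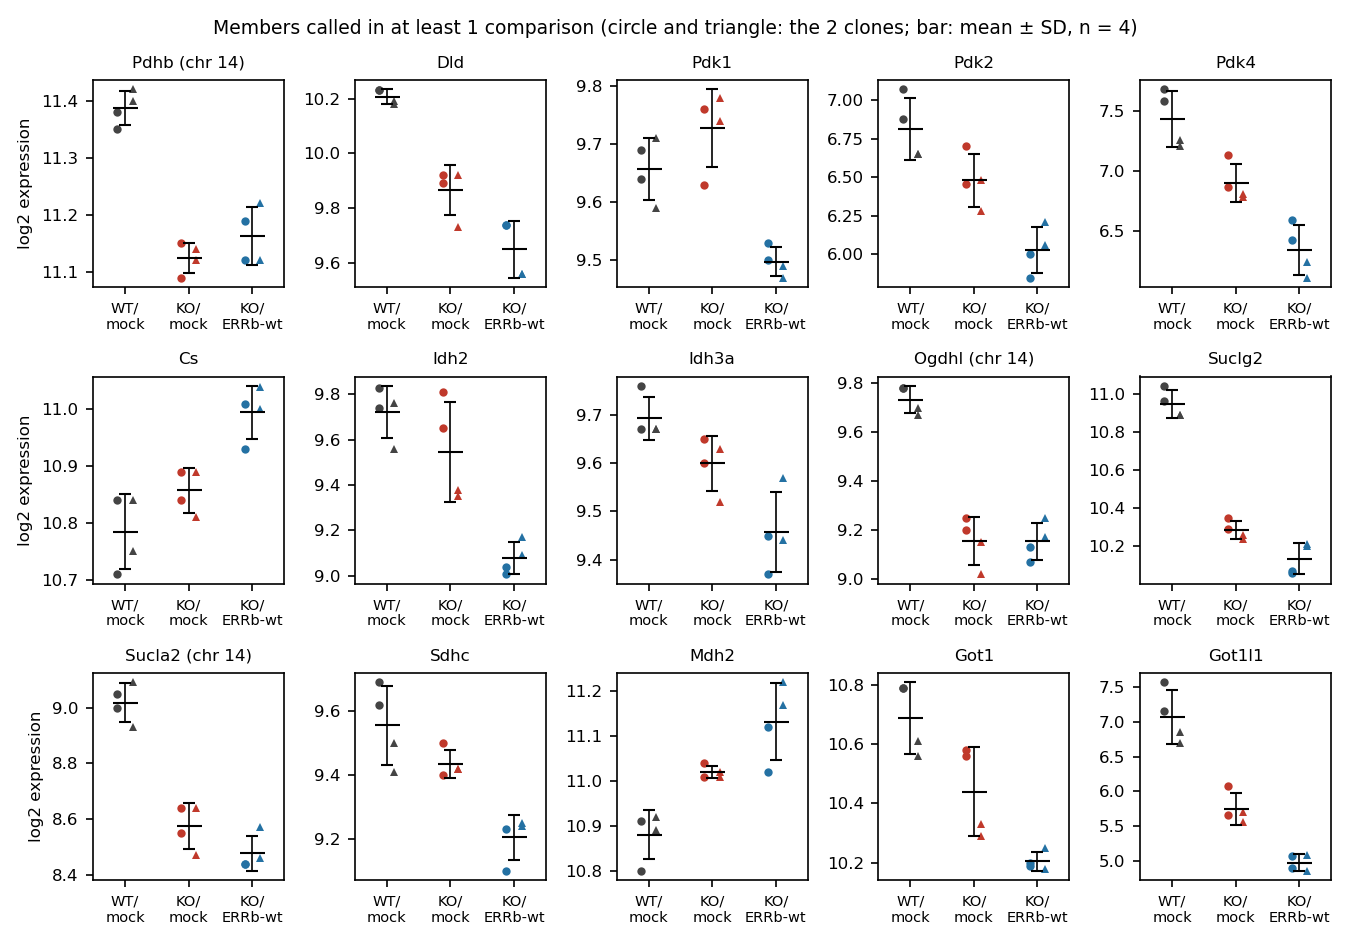
Log2 expression of the 15 genes called in at least 1 comparison, on each array of WT/mock, KO/mock and KO/ERRb-wt; circles and triangles are the 2 clones of a group, and bars are the mean ± SD of 4 arrays. Each panel has its own scale, and the WT/mock points of Suclg2, Sucla2, Ogdhl, Dld, Pdhb, Pdk4 and Got1l1 all lie above the points of both other groups.

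Citrate synthase, encoded by Cs, joins acetyl-CoA to oxaloacetate and was higher on KO/ERRb-wt than on WT/mock. It read 10.71, 10.84, 10.75 and 10.84 on WT/mock, 10.84, 10.89, 10.89 and 10.81 on KO/mock and 10.93, 11.01, 11.04 and 11.00 on KO/ERRb-wt. The KO/ERRb-wt arrays were above the other 8, and WT/mock and KO/mock overlapped. The rise was 0.21 ± 0.06 (limma, BH-adjusted p = 0.0242), and the values against KO/mock and of KO/mock against WT/mock were 0.14 ± 0.06 (BH-adjusted p = 0.206) and 0.07 ± 0.06 (BH-adjusted p = 0.628). The Cs call ended without replicate 1 of WT/mock clone 5-2, replicate 1 of WT/mock clone 5-5 or either KO/ERRb-wt clone 12-3 array (BH-adjusted p up to 0.0746), without any of the 4 clones compared (up to 0.138), and under median centring of the arrays. Aco1, the cytosolic aconitase that also acts as an iron-regulatory protein, was called nowhere and differed by 0.14 ± 0.06 between KO/mock and WT/mock (BH-adjusted p = 0.298).

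Isocitrate dehydrogenases make oxoglutarate. Idh2, the mitochondrial NADP-dependent enzyme, was lower on KO/ERRb-wt than on both other groups. It read 9.83, 9.74, 9.76 and 9.56 on WT/mock, 9.65, 9.81, 9.35 and 9.38 on KO/mock and 9.04, 9.01, 9.17 and 9.09 on KO/ERRb-wt. The KO/ERRb-wt arrays lay below all others, and the KO/mock clones stood apart from each other, clone 8-4 being 0.36 below clone 8-3 (limma, BH-adjusted p = 0.538). Idh2 differed by -0.64 ± 0.10 from WT/mock (BH-adjusted p = 0.00132) and by -0.47 ± 0.10 from KO/mock (BH-adjusted p = 0.0325), and KO/mock differed from WT/mock by -0.17 ± 0.10 (BH-adjusted p = 0.468). The call against KO/mock ended without either array of clone 8-3 or any single KO/ERRb-wt array (BH-adjusted p up to 0.0859). Its cytosolic counterpart Idh1 differed by -0.06 ± 0.09 between KO/ERRb-wt and WT/mock (BH-adjusted p = 0.738).

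The NAD-dependent enzyme of the cycle is built from Idh3a, the catalytic alpha subunit, with Idh3b and Idh3g. Idh3a was lower on KO/ERRb-wt than on WT/mock. It read 9.76, 9.67, 9.67 and 9.67 on WT/mock, 9.60, 9.65, 9.52 and 9.63 on KO/mock and 9.45, 9.37, 9.57 and 9.44 on KO/ERRb-wt. WT/mock was above both other groups, which overlapped. The fall was -0.23 ± 0.06 (limma, BH-adjusted p = 0.0202), and the call ended without replicate 1 of WT/mock clone 5-2, replicate 2 of KO/ERRb-wt clone 12-1 or replicate 2 of KO/ERRb-wt clone 12-3 (BH-adjusted p up to 0.0627), and without clone 5-2, 5-5 or 12-1 (up to 0.123). Idh3b differed by -0.03 ± 0.05 in that comparison (BH-adjusted p = 0.746) and Idh3g by -0.13 ± 0.05 (BH-adjusted p = 0.12).

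The oxoglutarate dehydrogenase complex makes succinyl-CoA. Ogdhl, a paralogue of its decarboxylase Ogdh, lies on chromosome 14 and was lower on both KO/mock and KO/ERRb-wt than on WT/mock. It read 9.78, 9.78, 9.67 and 9.70 on WT/mock, 9.25, 9.20, 9.15 and 9.02 on KO/mock and 9.07, 9.13, 9.17 and 9.25 on KO/ERRb-wt. The 4 WT/mock arrays stood clear of the other 8, which covered the same range. The difference was -0.58 ± 0.07 in each comparison with WT/mock (limma, BH-adjusted p = 0.000687 for KO/mock and 0.00017 for KO/ERRb-wt) and 0.00 ± 0.07 between KO/ERRb-wt and KO/mock. Ogdh itself read 10.54 to 10.64 on WT/mock, 10.39 to 10.51 on KO/mock and 10.38 to 10.48 on KO/ERRb-wt, with differences of -0.14 ± 0.06 (BH-adjusted p = 0.222) and -0.17 ± 0.06 (BH-adjusted p = 0.0639) against WT/mock. Dlst, the succinyltransferase core, differed by -0.01 ± 0.05 and -0.06 ± 0.05.

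Succinyl-CoA ligase, the step of the cycle that makes a nucleoside triphosphate, pairs the alpha subunit Suclg1 with either of 2 beta subunits. Both beta subunits, Suclg2 for the GTP-linked enzyme and Sucla2 for the ATP-linked enzyme, were lower on KO/mock and KO/ERRb-wt than on WT/mock. Suclg2 read 10.96, 11.04, 10.89 and 10.89 on WT/mock, 10.29, 10.35, 10.26 and 10.24 on KO/mock and 10.06, 10.07, 10.20 and 10.21 on KO/ERRb-wt. The groups followed one another without overlap. Suclg2 fell by 36.6% on KO/mock, a log2 difference of -0.66 ± 0.06 (limma, BH-adjusted p = 0.000253), while on KO/ERRb-wt it fell by 42.8% against WT/mock, -0.81 ± 0.06 (BH-adjusted p = 1.2e-05). KO/ERRb-wt minus KO/mock was -0.15 ± 0.06 (BH-adjusted p = 0.223). A second, dimmer Suclg2 probe set, with a mean of 4.91, differed by -0.41 ± 0.15 (BH-adjusted p = 0.181) and -0.63 ± 0.15 (BH-adjusted p = 0.0136) against WT/mock.

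Sucla2, on chromosome 14, read 9.05, 9.00, 8.93 and 9.09 on WT/mock, 8.64, 8.55, 8.47 and 8.64 on KO/mock and 8.44, 8.44, 8.57 and 8.46 on KO/ERRb-wt. WT/mock was above all other arrays and the remaining groups overlapped. The difference was -0.44 ± 0.06 from WT/mock to KO/mock (limma, BH-adjusted p = 0.00218), -0.54 ± 0.06 from WT/mock to KO/ERRb-wt (BH-adjusted p = 0.000166) and -0.10 ± 0.06 from KO/mock to KO/ERRb-wt (BH-adjusted p = 0.414). The alpha subunit Suclg1 read 8.60 to 8.65 on WT/mock, 8.63 to 8.71 on KO/mock and 8.66 to 8.69 on KO/ERRb-wt. Its differences against WT/mock were 0.07 ± 0.05 (BH-adjusted p = 0.528) and 0.06 ± 0.05 (BH-adjusted p = 0.458), opposite in sign to those of its partners.

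The stretches of 250 bases before the start sites of these beta subunit genes are shown because both were called lower against WT/mock. The difference of Sucla2 was near the median of its chromosome, -0.41 from WT/mock to KO/mock, and was -0.02 ± 0.07 relative to that chromosome (limma, BH-adjusted p = 0.937). They are from RefSeq on build GRCm38.p6, 5′ to 3′ on the gene's strand, Suclg2 at chr6:95718847-95719096 on the minus strand and Sucla2 at chr14:73552536-73552785 on the plus strand. Capitals mark GCGCA, any base, then GCGC, on either strand, the core of the site of NRF1, a known regulator of mitochondrial genes.
Suclg2: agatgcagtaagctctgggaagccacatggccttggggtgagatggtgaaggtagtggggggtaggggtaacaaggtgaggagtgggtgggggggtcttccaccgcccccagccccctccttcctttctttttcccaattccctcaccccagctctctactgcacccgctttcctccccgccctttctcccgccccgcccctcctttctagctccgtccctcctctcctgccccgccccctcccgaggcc
Sucla2: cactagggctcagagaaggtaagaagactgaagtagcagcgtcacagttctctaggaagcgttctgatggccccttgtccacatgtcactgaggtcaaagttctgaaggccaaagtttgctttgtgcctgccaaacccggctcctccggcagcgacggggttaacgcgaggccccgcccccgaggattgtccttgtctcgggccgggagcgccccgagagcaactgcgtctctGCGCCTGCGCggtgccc
The bases G and C made up 64.4% of the Suclg2 stretch and 61.2% of the Sucla2 stretch, against a median of 52.4% over all 32851 promoters of the table. The Sucla2 match began 17 bases before the start site, and the Suclg2 stretch held none.

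ERR receptors are known to bind the motif AAGGTCA, in its extended form TCAAGGTCA. Of the 38 members, 33 had an entry in the promoter table, which spans 250 bases before to 50 after a start site, and 3 of them held AAGGTCA on either strand: Got1, Ogdh and Sdhd, or 9.09% against 5.38% of all 27025 genes of the table. The extended form, which contains the shorter one, was in Sdhd alone (0.466% of all genes). The windows are shown because these are the members whose promoters hold the letters the receptor is known for, each on the strand that reads AAGGTCA, with the matched letters in capitals.
Got1 (chr19:43524834-43524855, minus strand): cccagAAGGTCAggaggttgtc
Ogdh (chr11:6292155-6292181, minus strand): cgcaggcaccAAGGTCAgcgccgtgtc
Sdhd (chr9:50603800-50603823, plus strand): agggcTCAAGGTCActctacaacc
Of these genes, Got1 was called in 1 comparison and Ogdh and Sdhd in none, while the called genes Suclg2, Sucla2, Dld, Pdhb, Ogdhl, Pdk4, Pdk2, Pdk1, Idh2, Cs and Mdh2 did not hold AAGGTCA in this window. The called genes Got1l1, Idh3a and Sdhc had no entry in the promoter table and were not searched. The NRF1 core, a search added after the values were seen, was in 4 of the 33 members, Dld, Sucla2, Sdha and Sdhd, or 12.1% against 5.19% of all genes. A match describes letters in the window and no binding was measured.

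Succinate dehydrogenase, which is also complex II of the respiratory chain, is made of the flavoprotein Sdha, the iron-sulphur protein Sdhb and the membrane anchors Sdhc and Sdhd. Sdhc was lower on KO/ERRb-wt than on WT/mock, and no other subunit was called in any comparison. It read 9.62, 9.69, 9.41 and 9.50 on WT/mock, 9.40, 9.50, 9.42 and 9.42 on KO/mock and 9.23, 9.10, 9.25 and 9.24 on KO/ERRb-wt. The KO/ERRb-wt arrays were below all others, and WT/mock and KO/mock overlapped. Sdhc differed by -0.35 ± 0.07 from WT/mock (limma, BH-adjusted p = 0.00522) and by -0.23 ± 0.07 from KO/mock (BH-adjusted p = 0.1). The Sdhc call ended without clone 5-2 (BH-adjusted p = 0.062). In KO/ERRb-wt minus WT/mock, Sdha, Sdhb and Sdhd differed by 0.02 ± 0.05, 0.03 ± 0.06 and 0.14 ± 0.06 (BH-adjusted p = 0.862, 0.8 and 0.173). Fh1, which encodes fumarase, the next enzyme, differed by 0.03 ± 0.05, -0.03 ± 0.05 and -0.01 ± 0.05 in the 3 comparisons.

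Malate dehydrogenase closes the cycle and, with its cytosolic form, carries the shuttle. The mitochondrial gene Mdh2 was higher on KO/ERRb-wt than on WT/mock. It read 10.91, 10.80, 10.89 and 10.92 on WT/mock, 11.04, 11.01, 11.02 and 11.01 on KO/mock and 11.02, 11.12, 11.17 and 11.22 on KO/ERRb-wt. WT/mock was below all other arrays. The rise was 0.25 ± 0.06 (limma, BH-adjusted p = 0.0108), and KO/mock minus WT/mock was 0.14 ± 0.06 (BH-adjusted p = 0.248). The Mdh2 call ended without clone 5-2 or clone 12-3 (BH-adjusted p up to 0.105). Cytosolic Mdh1 differed by -0.03 ± 0.06 between KO/ERRb-wt and WT/mock (BH-adjusted p = 0.795). The malic enzymes Me1, Me2 and Me3, which turn malate into pyruvate, were called nowhere, and their differences lay between -0.18 ± 0.09 (Me1, KO/ERRb-wt minus KO/mock, BH-adjusted p = 0.309) and 0.10 ± 0.09 (Me1, KO/mock minus WT/mock, BH-adjusted p = 0.67) or 0.10 ± 0.13 (Me3, KO/ERRb-wt minus KO/mock, BH-adjusted p = 0.738). Me3 had the lowest values of the list, a mean of 4.47 that is below the array medians.

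Aspartate aminotransferases form the other side of the shuttle, Got1 in the cytosol and Got2 in mitochondria. Got1 was lower on KO/ERRb-wt than on WT/mock. It read 10.79, 10.79, 10.61 and 10.56 on WT/mock, 10.58, 10.56, 10.29 and 10.33 on KO/mock and 10.20, 10.19, 10.25 and 10.18 on KO/ERRb-wt. The KO/ERRb-wt arrays were below all others, and in both other groups the clones stood apart, clone 5-5 being 0.20 below 5-2 and clone 8-4 being 0.26 below 8-3 (limma, BH-adjusted p = 0.576 and 0.538). Got1 differed by -0.48 ± 0.08 from WT/mock (BH-adjusted p = 0.00219) and by -0.23 ± 0.08 from KO/mock (BH-adjusted p = 0.158), and KO/mock differed from WT/mock by -0.25 ± 0.08 (BH-adjusted p = 0.142). Got2 differed by -0.08 ± 0.05 between KO/ERRb-wt and WT/mock (BH-adjusted p = 0.359).

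Got1l1, a paralogue of Got1, had the largest differences of the 38 genes and was the only member called in all 3 comparisons. It read 7.16, 7.57, 6.85 and 6.69 on WT/mock, 5.66, 6.08, 5.56 and 5.70 on KO/mock and 5.07, 4.89, 4.86 and 5.08 on KO/ERRb-wt. The groups followed one another with no overlap, and the lowest values lay at the array medians, where a log2 difference can understate a change. The difference was -1.32 ± 0.17 from WT/mock to KO/mock (limma, BH-adjusted p = 0.00142), -0.77 ± 0.17 from KO/mock to KO/ERRb-wt (BH-adjusted p = 0.0364) and -2.09 ± 0.17 from WT/mock to KO/ERRb-wt (BH-adjusted p = 2.09e-05). The call against KO/mock ended without replicate 1 of WT/mock clone 5-2, replicate 2 of KO/mock clone 8-4, either array of clone 8-3 or any single KO/ERRb-wt array (BH-adjusted p up to 0.093). Acly, the cytosolic lyase that turns exported citrate back into acetyl-CoA, read 10.94 to 11.09 on WT/mock, 10.98 to 11.20 on KO/mock and 11.16 to 11.26 on KO/ERRb-wt, a difference of 0.19 ± 0.06 between KO/ERRb-wt and WT/mock (BH-adjusted p = 0.0676).

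All 3 members on chromosome 14, Pdhb, Ogdhl and Sucla2, were called lower in both comparisons with WT/mock, and none was called between KO/ERRb-wt and KO/mock, where all 3 had an unadjusted p above 0.05 and 8.16% of the chromosome's brighter genes were called lower. Most of that chromosome was lower as well in the comparisons with WT/mock. Of its 343 genes with a mean of at least 6, 73.5% were called lower in KO/mock minus WT/mock and 78.4% in KO/ERRb-wt minus WT/mock, with medians of -0.41 and -0.48 against 0.03 and -0.01 on the other chromosomes. Ogdhl, at -0.58, had 73 and 129 of the 343 genes below it, Sucla2 had 145 and 142, and Pdhb had 259 and 269. The lower and upper quartiles of the chromosome were -0.55 and -0.27 on KO/mock, and on KO/ERRb-wt they were -0.70 and -0.28.

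Each array's value was then taken minus its median over the other chromosome 14 genes. On this scale Sucla2 differed by -0.02 ± 0.07 between KO/mock and WT/mock (limma, BH-adjusted p = 0.937) and Ogdhl, added to this step after its value was seen, by -0.16 ± 0.08 (BH-adjusted p = 0.359). Pdhb changed sign, to 0.16 ± 0.05 (BH-adjusted p = 0.148) for KO/mock and 0.27 ± 0.05 (BH-adjusted p = 0.00563) for KO/ERRb-wt minus WT/mock. In KO/ERRb-wt minus WT/mock, Sucla2 differed by -0.05 ± 0.07 and Ogdhl by -0.09 ± 0.08 on this scale (limma, BH-adjusted p = 0.687 and 0.531). Without these 3 genes, an alternative chosen after the data were seen, 3 of 35 members were called in KO/mock minus WT/mock: Suclg2, Dld and Got1l1. That is 8.57%, against 5.58% of all genes and 10.8% of the brighter ones, chromosome 14 included in both. The counts in KO/ERRb-wt minus KO/mock and in KO/ERRb-wt minus WT/mock were then 4 and 11, or 11.4% and 31.4%, against 8.3% and 37.8% of the brighter genes. Those shares of brighter genes include chromosome 14 as well.

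**Figure D4:**
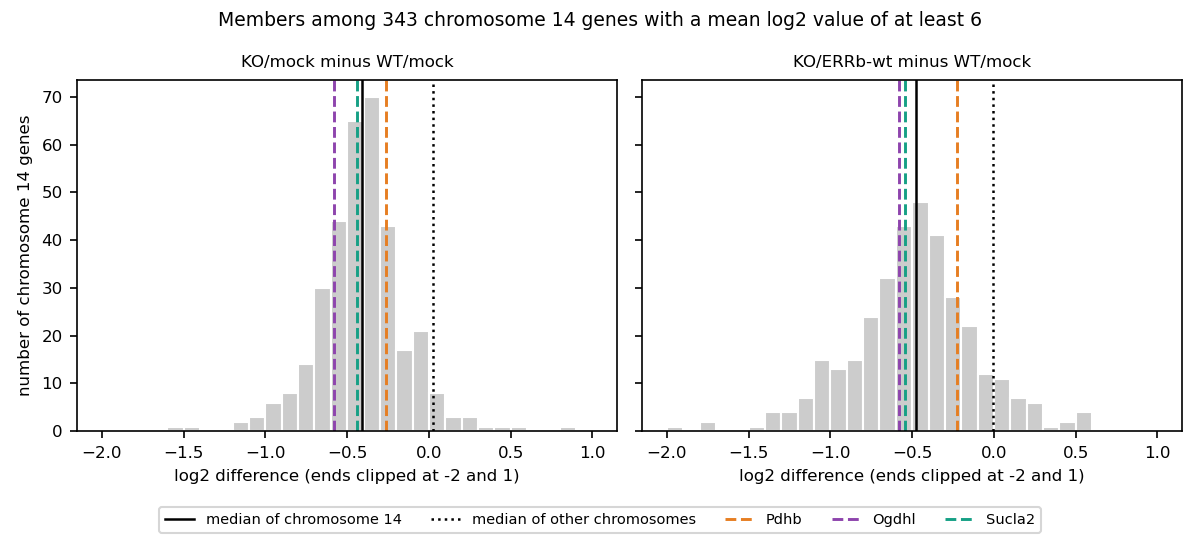
Log2 differences of the 343 chromosome 14 genes with a mean log2 value of at least 6 (grey bars, number of genes per bin) for KO/mock minus WT/mock and KO/ERRb-wt minus WT/mock, with values beyond -2 and 1 put in the end bins. The solid line is the median of these genes, the dotted line that of the other chromosomes, and dashed lines mark Pdhb, Ogdhl and Sucla2; Sucla2 lies near the chromosome's median, Ogdhl below it and Pdhb above it.

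Clones of the same label were compared as a gauge of how far members move without a change of group. None of the 38 members was called between the 2 clones of any label (limma with 6 clones as groups, 2 arrays each), with 6 members in WT/mock, 2 in KO/mock and 1 in KO/ERRb-wt at an unadjusted p under 0.05. Over all genes, 0%, 0.00902% and 0% were called at a BH-adjusted p under 0.05. No share of all genes at an unadjusted p under 0.05 was taken. The member counts at that level, here and with clones averaged below, therefore stand without a comparison. The median size of the clone difference was 0.06, 0.06 and 0.07. The largest were those of Got1l1 in WT/mock, with clone 5-5 0.60 below 5-2, of Idh2 in KO/mock at 0.36 and of Pdk4 in KO/ERRb-wt, with clone 12-3 0.33 below 12-1. With the 2 arrays of a clone averaged, so that 2 clones stood against 2, no member was called by limma in KO/mock minus WT/mock or KO/ERRb-wt minus KO/mock (7 and 6 at an unadjusted p under 0.05), and 7 were called in KO/ERRb-wt minus WT/mock: Dld, Pdk2, Pdk4, Ogdhl, Suclg2, Sucla2 and Got1l1. Of all 41345 probe sets, 10, 0 and 2251 were called in these fits, so few calls were made on any gene in the first and second.

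Among the 24 other genes of the pathway with a probe set of their own, 8 were called in KO/mock minus WT/mock, 4 in each direction, with a median difference of -0.06. That is 33.3%, against 5.58% of all genes and 10.8% of the brighter ones. Higher were Pcx, the pyruvate carboxylase that refills oxaloacetate, at 0.37 ± 0.06 (limma, BH-adjusted p = 0.00406), the dicarboxylate carrier Slc25a10 at 0.42 ± 0.08, an aspartate-glutamate carrier, Slc25a12, at 0.28 ± 0.06 and the mitochondrial acetyl-CoA synthetase Acss1 at 0.42 ± 0.05. Slc25a13, the other aspartate-glutamate carrier on the list and the brighter one, was not called, at 0.04 ± 0.05 (limma, BH-adjusted p = 0.81). Acss1 had 2 probe sets, and its difference ran from 0.24 to 0.46 over the 27 settings. Lower were the mitochondrial phosphoenolpyruvate carboxykinase Pck2 at -0.80 ± 0.12, glutamate dehydrogenase Glud1 at -0.35 ± 0.05, Dhtkd1, a paralogue of Ogdh, at -0.30 ± 0.07 and the transhydrogenase Nnt at -0.27 ± 0.06. Pck2 and Glud1 lie on chromosome 14. The count fell to 5 without replicate 1 of WT/mock clone 5-2, replicate 2 of WT/mock clone 5-2, replicate 1 of KO/mock clone 8-3 or replicate 2 of KO/mock clone 8-4. These arrays each ended the call of Slc25a12 (BH-adjusted p up to 0.0766), and they did so for Dhtkd1 and Nnt too, as did replicate 1 of WT/mock clone 5-5 and replicate 1 of KO/mock clone 8-4 (BH-adjusted p up to 0.0897 and 0.121). replicate 2 of WT/mock clone 5-5 and replicate 2 of KO/ERRb-wt clone 12-3 also ended that of Nnt.

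In KO/ERRb-wt minus WT/mock, 14 of these 24 were called, 5 higher and 9 lower, with a median of -0.15. That is 58.3%, against 20.8% of all genes and 37.8% of the brighter ones. Pcx, Slc25a10, Slc25a12 and Acss1 were again higher, at 0.33 ± 0.06, 0.38 ± 0.08, 0.21 ± 0.06 and 0.22 ± 0.05, with Lipt2, a lipoyl transferase, at 0.27 ± 0.07 (limma, BH-adjusted p = 0.0152). Pck2 was -1.02 ± 0.12, Dhtkd1 -0.53 ± 0.07, Nnt -0.51 ± 0.06 and Glud1 -0.43 ± 0.05. Lias, which makes the lipoyl group that Dlat and Dlst carry, was -0.30 ± 0.06 (BH-adjusted p = 0.00398). The assembly factors of succinate dehydrogenase Sdhaf4, Sdhaf3 and Sdhaf1 were -0.59 ± 0.13, -0.34 ± 0.08 and -0.25 ± 0.08, and the oxaloacetate decarboxylase Fahd1 was -0.47 ± 0.11. The call of Sdhaf1 (BH-adjusted p = 0.0459) ended when any single array but replicate 1 of KO/ERRb-wt clone 12-3 was left out (up to 0.125). It also ended when the mean of the gene's 2 probe sets was used. That of Slc25a12 ended without any of the KO/ERRb-wt arrays or any of the WT/mock arrays but clone 5-5 replicate 1 (up to 0.103). In KO/ERRb-wt minus KO/mock the single call was Sdhaf3, at -0.36 ± 0.08 (limma, BH-adjusted p = 0.0363). That is 4.17% of the 24, against 4.4% of all genes and 8.3% of the brighter ones. The Sdhaf3 call ended without either array of clone 8-3, replicate 2 of KO/mock clone 8-4, replicate 2 of KO/ERRb-wt clone 12-1 or replicate 2 of KO/ERRb-wt clone 12-3 (up to 0.094).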

How the data were processed

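The deposited table held log2 expression values of 41345 probe sets on 12 arrays, which the authors produced by RMA. The submitters' processing notes name Affymetrix Expression Console for this, the sources used here do not give its version, and the log2 scale was read from the values. Because RMA gives every array a common distribution of probe intensities before they are summarized by probe set, a shift of most genes together is not visible. The summarized values still had array medians from 5.00 to 5.07. No background level accompanies a value. Exactly 1 gene symbol was listed for 23521 probe sets by the platform annotation, which can be old. Chromosomes and promoters came from RefSeq on GRCm38.p6, and promoters were matched by symbol.

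All arrays entered a single limma fit (limma 3.58.1, R 4.3.3, statmod 1.5.0) of the 3 groups in which clone was the random block, at a consensus correlation of 0.0286. The two-sided p-values had Benjamini-Hochberg adjustment over all probe sets, and the pipeline was tested on simulated data. The number of arrays and clones limits the precision. The members, the gene lists and the rule for named genes (every member called at least once, its partners in the same enzyme, called pathway genes and Esrrb) were chosen with earlier results of these data known. Alternatives were other blocks, groups, normalizations, weights, probe set rules, a filter on dim probe sets, and arrays or clones left out.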

Additional observations from a re-analysis of the deposited data

Results flagged for a closer look

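Within the 117 groups of 4 arrays checked (38 members and Esrrb, 3 groups each), 8 held an array whose gap to its nearest neighbour passed Dixon's limit as a share of the group's range, which chance passes in about 1 group of 20. Among called genes, Dld read 9.73 on KO/mock clone 8-4 replicate 1, below 9.89 to 9.92 on the others of its group. Idh3a read 9.76 on WT/mock clone 5-2 replicate 1 against 9.67 on its neighbours, and Sucla2 read 8.57 on KO/ERRb-wt clone 12-3 replicate 1 against 8.44 to 8.46. Sdhc read 9.50 on KO/mock clone 8-3 replicate 2 against 9.40 to 9.42, and 9.10 on KO/ERRb-wt clone 12-1 replicate 2 against 9.23 to 9.25. The uncalled genes were Idh1 at 10.39 on WT/mock clone 5-5 replicate 2, Suclg1 at 8.65 on WT/mock clone 5-2 replicate 2 and Pdha1 at 10.45 on KO/ERRb-wt clone 12-3 replicate 1. The 8 lay on 7 arrays.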

How the results depend on the processing

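The counts of called members were 6 in KO/mock minus WT/mock, 4 in KO/ERRb-wt minus KO/mock and 14 in KO/ERRb-wt minus WT/mock, and those of the 24 other pathway genes 8, 1 and 14. Leaving out 1 array at a time gave 5 to 7, 0 to 4 and 12 to 16 members and 5 to 8, 0 to 3 and 12 to 14 other genes. Beyond the main fit, the number of all probe sets called is given for clone averages alone. Changes of these counts between settings, here and above, are therefore not read as particular to the members or the other genes. The 4 member calls of KO/ERRb-wt minus KO/mock fell to 0 without either array of clone 8-3, replicate 1 of KO/ERRb-wt clone 12-1 or either array of clone 12-3, to 1 without replicate 1 of WT/mock clone 5-2, replicate 2 of KO/mock clone 8-4 or replicate 2 of KO/ERRb-wt clone 12-1, and to 2 without replicate 2 of WT/mock clone 5-2 or replicate 1 of WT/mock clone 5-5. Averaging the arrays of each clone left 0, 0 and 7 members and 0, 0 and 4 other genes, with fewer samples and 10, 0 and 2251 of all probe sets called. Pdk4 was called in KO/mock minus WT/mock in 9 of 27 settings, among them no clone block, quantile normalization and dim probe sets left out. In the comparison with KO/mock, the members called were 2 with a replicate block, 1 in a fit of only the groups compared, 2 after quantile normalization, 0 without clone 8-3 or clone 12-3, and 1 without clone 8-4 or clone 12-1. The other genes called there were 2 without the clone block, 4 under median centring, 5 with dim probe sets left out, 3 with array weights, 2 without clone 8-4, and 0 in the fit of only the groups compared, after quantile normalization, or without clone 8-3, 12-1 or 12-3. In KO/mock minus WT/mock, the other genes called were 5 in the fit of only the groups compared, 2 without clone 5-2, 5 without clone 8-3 and 4 without clone 8-4, and in KO/ERRb-wt minus WT/mock 8 without clone 5-2. The replicate block left 6 and 14 members called against WT/mock. Replicate numbers count within clones and give no pairing across groups: over 15 pairs of clones the replicate differences correlated from -0.06 to 0.21, 3 of them above 0.1. Without the members on chromosome 14, 3 members were called in KO/mock minus WT/mock, or 8.57%, against 5.58% of all genes and 10.8% of the brighter ones. Both of the latter shares include chromosome 14, where 73.5% of the brighter genes were called lower, so they are not a like comparison. Relative to that chromosome Pdhb reversed, to 0.16 and 0.27 (BH-adjusted p = 0.148 and 0.00563). The cause was not tested beyond what each setting's own construction shows. Of the member calls, 4 of 6, 0 of 4 and 9 of 14 held in every setting but clone averages. The share of calls on all probe sets that were higher in KO/ERRb-wt minus KO/mock was 30.4%, against 42.2% after quantile normalization and 21.5% after median centring.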
